A study of Chelon labrosus with 24 samples.

Results

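Liver gene expression of caged thicklip grey mullets (Chelon labrosus) was compared here by a single contrast: how the difference between the inner and the outer part of a harbour changed from a first to a second sampling. All 24 arrays of the series enter it, in 4 groups of 6 set by the sample titles. The groups are immature fish caged in the inner harbour (Pasaia_AZTI) at the second sampling, in the outer harbour (Pasaia_Donibane) at the second sampling, and at the same inner and outer places at the first sampling. The labels put the second sampling at day 21 and the first at day 5, while the series text gives 15 and 3 days of exposure, so they are called second and first. The labels number the livers without stating that each is a separate fish, so the p-values describe sample-to-sample spread, which may be partly technical. Each place has a single set of caged fish, whose cage and place cannot be told apart. Each sampling also fills an array row of its own on every slide, and row and sampling cannot be told apart either. In whole liver, fewer cells of a type and less RNA per cell cannot be told apart.

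The fish liver takes up foreign compounds and makes them soluble in steps. Phase I enzymes such as the cytochromes P450 and epoxide hydrolase oxidise or hydrolyse them, phase II enzymes such as UGT and GST attach glucuronic acid or glutathione, and transporters move the products out. Part of this system is switched on through the aryl hydrocarbon receptor (AhR), which binds planar pollutants, and antioxidant enzymes, heat shock proteins and metallothionein are other proteins that pollution studies follow. A harbour study that samples caged fish more than once can ask whether places differ in the same way at each time, which is the question of this contrast.

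The array carries 638 probes of 55 bases for 158 genes, and 476 probes of 128 genes were bright enough to be tested. Most genes have 4 probes, and in 14 of the 17 genes described below all probes lie within a single stretch of overlapping bases, so that their agreement is not independent evidence. The probes of 3 genes show the extremes. Those of heme oxygenase are each moved by 1 base and share 52 of the 58 bases they span, those of UGT come from 2 separate stretches, and those of AHR2, a fish form of the AhR, come from 3 stretches that gave different results. A single probe each is added for CYP7, AOX, catalase and choriogenin L. Capitals mark the bases shared by all probes of a stretch, and letters are in the order the scanner files give.
Heme oxygenase, probe 1: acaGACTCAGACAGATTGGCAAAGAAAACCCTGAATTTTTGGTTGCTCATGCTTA
Heme oxygenase, probe 2: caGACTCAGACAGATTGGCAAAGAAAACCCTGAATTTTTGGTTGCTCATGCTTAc
Heme oxygenase, probe 3: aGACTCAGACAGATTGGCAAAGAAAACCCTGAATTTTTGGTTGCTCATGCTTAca
Heme oxygenase, probe 4: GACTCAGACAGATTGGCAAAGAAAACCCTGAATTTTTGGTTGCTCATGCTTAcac
UGT, stretch 1, probe 1: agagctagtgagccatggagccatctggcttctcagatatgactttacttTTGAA
UGT, stretch 1, probe 2: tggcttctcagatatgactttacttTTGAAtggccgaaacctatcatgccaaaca
UGT, stretch 1, probe 3: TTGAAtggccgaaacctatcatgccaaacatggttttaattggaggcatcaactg
UGT, stretch 2: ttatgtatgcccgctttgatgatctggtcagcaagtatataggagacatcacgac
AHR2, stretch 1, probe 1: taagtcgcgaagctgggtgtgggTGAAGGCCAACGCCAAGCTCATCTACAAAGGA
AHR2, stretch 1, probe 2: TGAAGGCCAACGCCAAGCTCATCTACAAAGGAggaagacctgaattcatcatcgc
AHR2, stretch 2: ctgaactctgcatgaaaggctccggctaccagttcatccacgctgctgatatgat
AHR2, stretch 3: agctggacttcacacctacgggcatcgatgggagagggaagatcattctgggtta
CYP7: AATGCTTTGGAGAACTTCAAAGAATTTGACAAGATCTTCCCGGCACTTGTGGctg
AOX: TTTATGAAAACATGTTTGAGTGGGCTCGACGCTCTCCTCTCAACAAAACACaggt
Catalase: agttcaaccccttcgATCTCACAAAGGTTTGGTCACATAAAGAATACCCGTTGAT
Choriogenin L: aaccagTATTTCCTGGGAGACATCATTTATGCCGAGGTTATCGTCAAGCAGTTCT

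The site difference changed between the samplings for 58 of 476 tested probes (12.2%), which belong to 17 of 128 genes (13.3%). It became more positive (inner minus outer larger at the second sampling than at the first) for 53 probes (11.1%) of 15 genes (11.7%). It became more negative for 5 probes (1.05%) of 2 genes (1.56%), heme oxygenase and choriogenin L. Calls are those of limma's moderated test with an adjusted p (Benjamini-Hochberg, over all tested probes) under 0.05, and 144 probes had an unadjusted p under 0.05. Levels are log2 signals minus the array's 75th percentile, and every change given below is in log2 units with its standard error.

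The balance of directions depends on how the arrays are put on a common scale. The median change over all tested probes was 0.27 rather than 0, and 89 of 128 genes had a positive one on their brightest probe. Under 7 other scalings that median ran from -0.29 (median of detected probes) to 0.45 (spike-ins), and the called probes split into 19 higher and 11 lower after centring on the array median, 18 and 9 on the 75th percentile of detected probes, and 10 and 21 on their median. Quantile normalization gave 6 higher and 8 lower, spike-ins 7 and 4, normexp background correction 44 and 4, and the authors' deposited values 7 and 6. Normexp, counted here as a scaling, changes the background step and keeps the centring on the 75th percentile. No called change took the opposite sign under any of the 7 scalings, but heme oxygenase was the only gene whose described probe was called under all of them. By its described probe, AOX was called under 6, UGT under 5 (with some UGT probe called under all 7), choriogenin L under 3, CYP7, catalase, PCD8 and IGFI under 2, and pyruvate kinase, transferrin, HSC70, HSP70 and GST under 1. MF1, epoxide hydrolase 1, VEGF and AHR2 were called under none by that probe. The 1 setting of pyruvate kinase, transferrin, HSC70, HSP70 and GST was normexp, which was also among the 2 of CYP7, catalase, PCD8 and IGFI. By other probes, CYP7 was also called on the 75th percentile and on the median of detected probes. PCD8 was likewise called on the array median and on the median of detected probes, and epoxide hydrolase 1 with normexp.

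**Figure D1:**
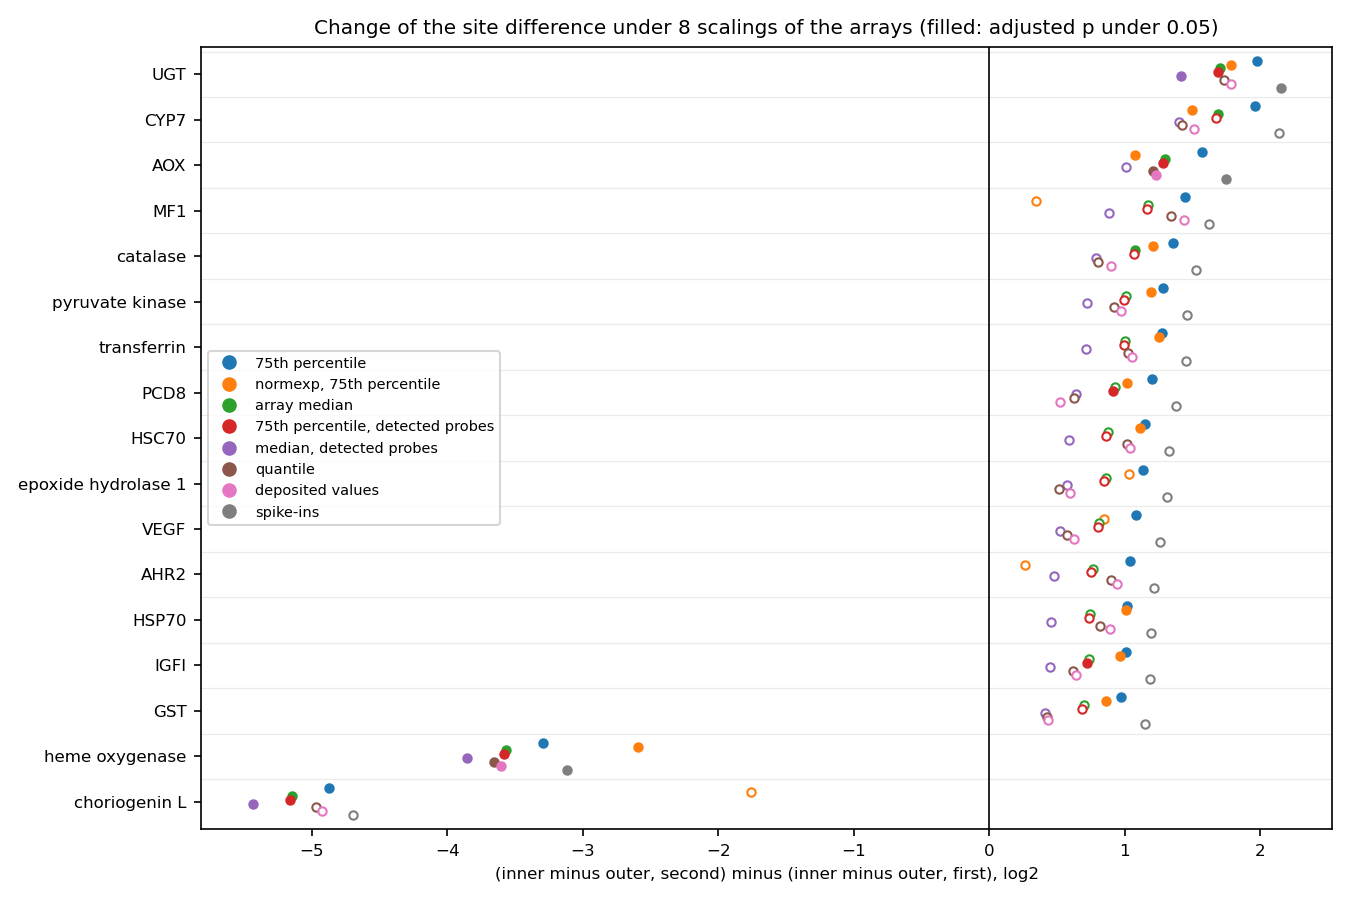
Change of the inner minus outer difference between the second and the first sampling (log2, horizontal axis) for the 17 called genes, each under 8 scalings of the arrays (colours). Filled points have an adjusted p under 0.05. All points of a gene lie on the same side of 0, and heme oxygenase is the only gene with all 8 points filled.

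The antioxidant list held both the most stable change and its opposite. Heme oxygenase (named Heme_oxigenase32 on the array), the enzyme that degrades heme, lay between -5.31 and -2.49 in inner livers at the second sampling (median -3.31) and between -4.15 and -2.51 in outer livers (median -3.70). At the first sampling inner livers lay between -2.29 and -0.35 (median -1.70) and outer livers between -5.73 and -3.99 (median -4.46). The places overlapped at the second sampling, while at the first every inner liver was above every outer one. The change of the site difference was -3.29 ± 0.62 (adjusted p = 0.00162), with all 4 probes called and values of -3.62 to -3.08 within the 3 slides. It was made of a fall in the inner harbour of 2.07 between the samplings (SE 0.44, adjusted p = 0.000990), against a difference of 1.22 ± 0.44 in the outer harbour that did not pass (adjusted p = 0.0601). Under the 7 other scalings that outer difference was 0.83 to 1.56, and it was called under 4 of them. Put as a ratio, the inner over outer level was 0.925-fold at the second sampling and 9.06-fold at the first.

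Catalase, the peroxisomal enzyme that breaks down hydrogen peroxide, moved the other way. At the second sampling inner livers ran from -2.51 to -0.95 (median -1.66) and outer livers from -3.11 to -2.18 (median -2.63). At the first sampling inner livers ran from -1.97 to -0.59 (median -1.74) and outer livers from -1.50 to -0.82 (median -1.18). Inner and outer livers overlapped at both samplings, but all outer livers of the second sampling lay below all outer livers of the first. The change was 1.35 ± 0.34 (adjusted p = 0.0126, 4 of 4 probes). Catalase fell by 1.48 in the outer harbour (SE 0.24, adjusted p = 0.000113) and had -0.13 ± 0.24 in the inner one. The other 4 tested genes of the list did not pass and had changes between -0.20 ± 0.43 (glutathione peroxidase 2) and 0.49 ± 0.57 (XDh), with 0.27 ± 0.27 for the cytosolic superoxide dismutase Cu-Zn_SOD. The median of the 6 genes was 0.22, beside 0.26 over all 128 genes.

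**Figure D2:**
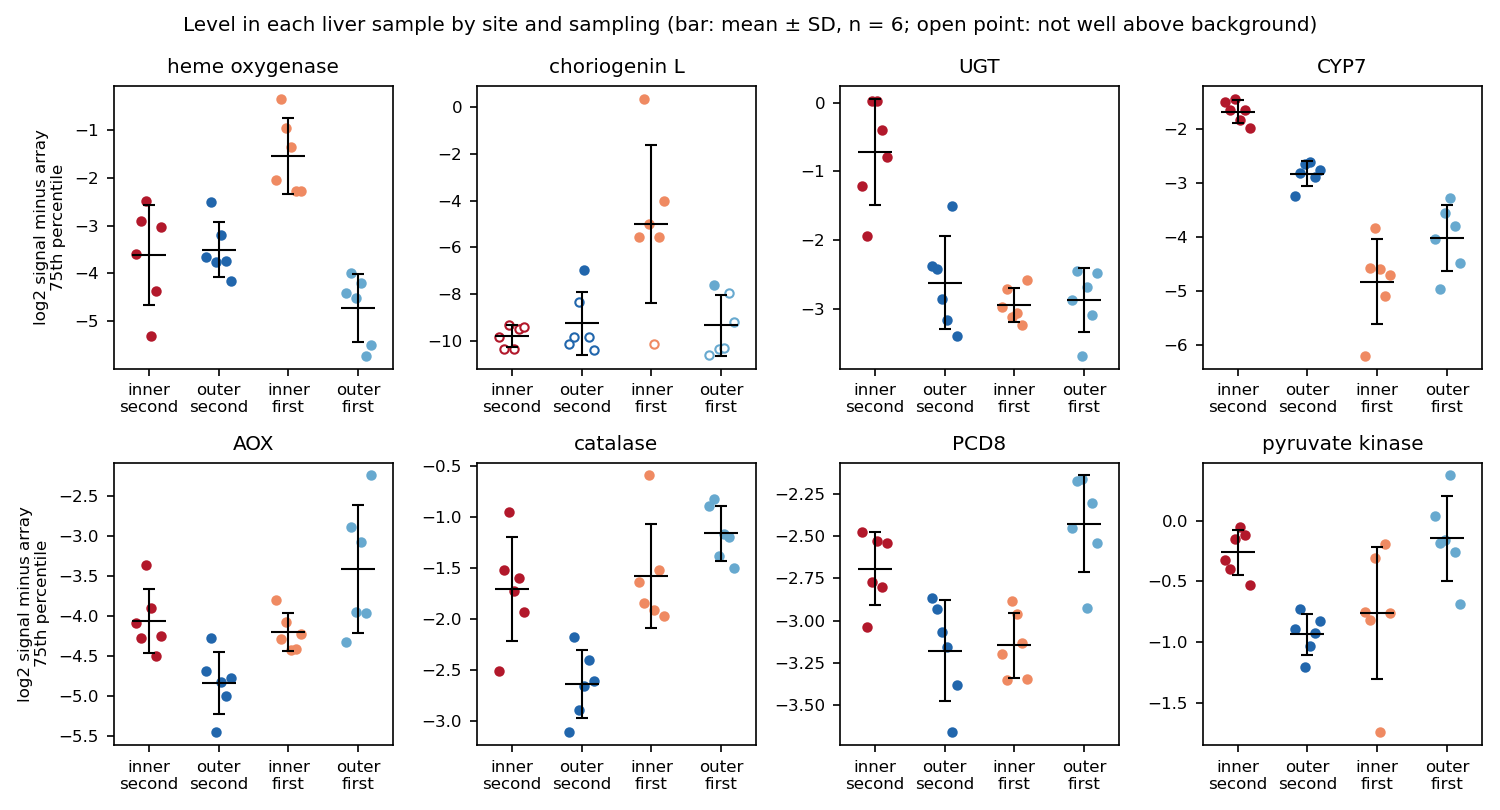
Level of 8 genes (log2 signal minus the array's 75th percentile, vertical axis) in each of the 24 liver samples, by place and sampling. Points are samples, bars the mean and SD of 6, and open points were not well above background. Heme oxygenase stands high in inner livers of the first sampling, and UGT and CYP7 in inner livers of the second.

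Phase II enzymes and efflux transporters had 2 of 5 tested genes higher, 0 lower and 3 that did not pass, with a median change of 0.97. Over all genes 15 of 128 (11.7%) were higher and the median was 0.26, and the lists were not tested as sets. UGT, named for the enzymes that attach glucuronic acid to foreign compounds, hormones and bilirubin, lay between -1.94 and 0.03 in inner livers (median -0.59) and between -3.39 and -1.50 in outer livers (median -2.64) at the second sampling. First-sampling values lay between -3.23 and -2.58 in inner livers (median -3.01) and between -3.67 and -2.45 in outer livers (median -2.77). The inner livers of the second sampling stood above all other livers except for an overlap with the highest outer liver of the same sampling. The change was 1.98 ± 0.45 (95% interval 1.04 to 2.91, adjusted p = 0.00586), and the stretch 1 and stretch 2 probes gave 1.77 to 1.98, all called. UGT rose by 2.23 in the inner harbour (SE 0.32, adjusted p = 1.04e-05) and had 0.25 ± 0.32 in the outer one. Within slides the change was 1.01, 2.93 and 1.98.

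GST, a glutathione conjugating enzyme, rose at both places and more in the inner harbour. Inner livers ran from -1.43 to -0.32 (median -0.81) and outer livers from -2.15 to -1.38 (median -1.65) at the second sampling. At the first they ran from -4.09 to -3.03 (median -3.66, inner) and from -3.83 to -3.22 (median -3.43, outer). All second-sampling livers were above all first-sampling livers of the same place. The rises were 2.77 ± 0.20 (inner, adjusted p = 1.21e-10) and 1.80 ± 0.20 (outer, adjusted p = 3.91e-07), and their difference was 0.98 ± 0.28 (adjusted p = 0.0264, 4 of 4 probes). The 3 transporters did not pass, with 0.97 ± 0.46 for ABC-b1, 0.44 ± 0.38 for ABCC2 and 0.29 ± 0.62 for ABCC3.

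Among phase I enzymes outside the CYP1 family, 1 of 5 tested genes was higher and 4 did not pass, with a median of 0.58. The share higher over all genes was 15 of 128 (11.7%). Epoxide hydrolase 1, which hydrolyses reactive epoxides, averaged -1.01 ± 0.43 in inner and -1.86 ± 0.36 in outer livers at the second sampling, and -1.11 ± 0.57 and -0.83 ± 0.42 at the first (SD, n = 6). The inner livers of the second sampling all lay above the outer ones, and the outer livers of the second sampling all lay below those of the first. The change was 1.14 ± 0.36 (adjusted p = 0.0412, 4 of 4 probes). The call was lost in 12 of 24 fits that each left out 1 array, 3 from every group, with adjusted p up to 0.0821. CYP_2, which bears a family name of drug-metabolising cytochromes P450, was higher in the inner harbour at the second sampling (1.85 ± 0.30, adjusted p = 0.000325) and at the first (0.93 ± 0.30, adjusted p = 0.0461), where the call was kept in 9 of 24 fits that left out 1 array and under 4 of 7 other scalings. Its change of 0.91 ± 0.43 did not pass (95% interval 0.03 to 1.80, adjusted p = 0.145).

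In the AhR and CYP1 list 1 of 4 tested genes was higher, beside 15 of 128 (11.7%) over all genes. It was so on 1 probe, and the median of the list was 0.60. That probe of AHR2, the second of stretch 1, averaged -6.08 ± 0.33 (inner) and -6.56 ± 0.28 (outer) at the second sampling, against -6.94 ± 0.44 and -6.38 ± 0.49 at the first (SD, n = 6). It was well above background in 5 of 6 outer livers of the second sampling and in all others. Its change was 1.04 ± 0.33 (adjusted p = 0.0381). Its neighbour in stretch 1 had 0.88 ± 0.36 (adjusted p = 0.0946), while the probes of stretch 2 and stretch 3 had 0.15 ± 0.39 and 0.30 ± 0.38. The probe of stretch 2 is the brightest of the 4, and with 1 value per gene AHR2 was not called. Leaving out 1 array ended the call in 13 of 24 fits (3 inner and 4 outer livers of the second sampling, 3 inner and 3 outer livers of the first), with adjusted p up to 0.0704.

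CYP1A1, the monooxygenase that planar pollutants induce through the AhR, lay between 1.30 and 2.64 in inner livers (median 1.95) and between 1.06 and 2.01 in outer livers (median 1.52) at the second sampling. Values at the first sampling lay between 0.52 and 1.57 (median 0.87, inner) and between 0.61 and 2.24 (median 1.22, outer). The places overlapped at each sampling. CYP1A1 rose by 1.03 ± 0.28 in the inner harbour (adjusted p = 0.00887) and had 0.21 ± 0.28 in the outer one, but the change of 0.82 ± 0.40 did not pass (95% interval -0.00 to 1.64, adjusted p = 0.165). Its 4 probes lie in 4 separate stretches and gave 0.82 to 1.21, and within slides the value was 1.39, 1.16 and -0.09. AHR1 had 0.37 ± 0.40 and the repressor AHRR 0.95 ± 0.58, the repressor being well above background in only 1 or 2 livers of each group.

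**Figure D3:**
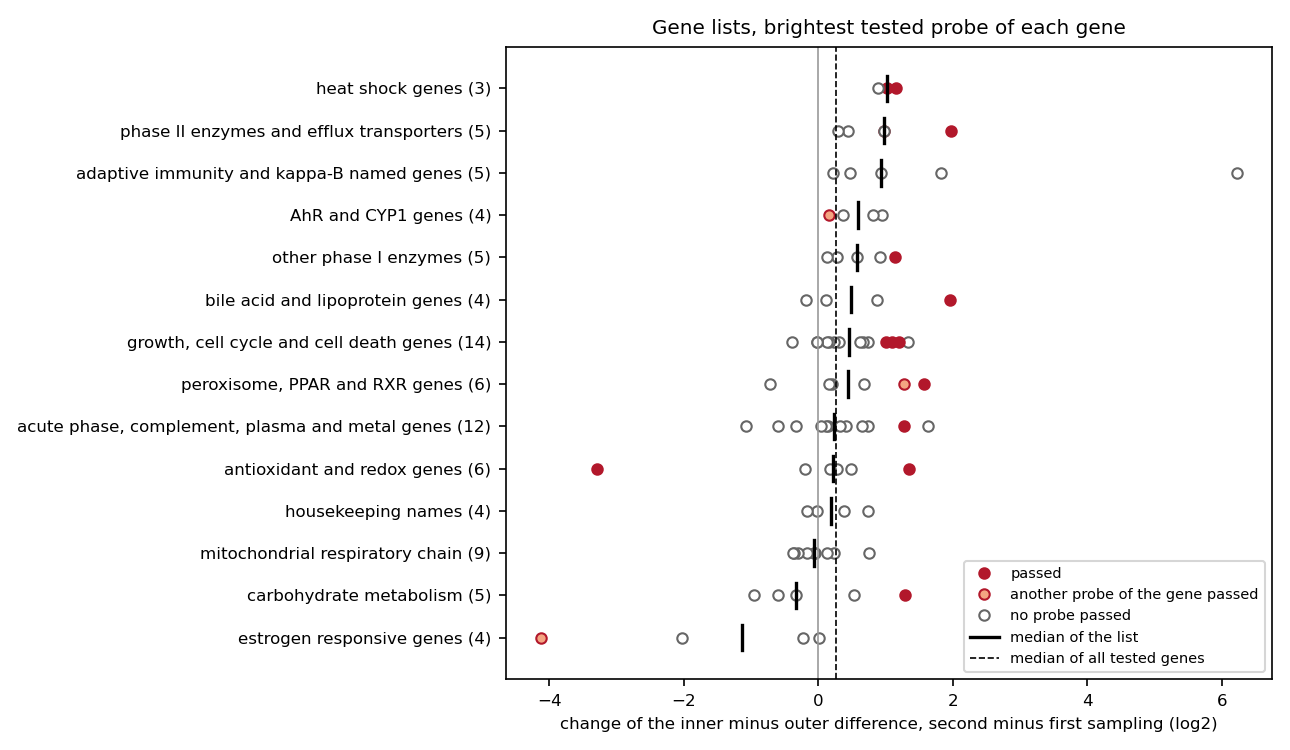
Change of the inner minus outer difference, second minus first sampling (log2, horizontal axis), for the brightest tested probe of each gene in 14 gene lists with 3 or more tested genes (number in brackets). Dark points passed, light red points belong to genes that passed with another probe, thick ticks are list medians and the dashed line is the median of 128 genes. The 3 heat shock genes lie to the right of that line and the 4 estrogen responsive genes to the left.

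Bile acid synthesis was represented by CYP7, which bears the name of the P450 family whose member CYP7A1 starts the conversion of cholesterol to bile acids. It lay between -1.98 and -1.43 in inner livers (median -1.64) and between -3.23 and -2.60 in outer livers (median -2.78) at the second sampling. At the first sampling it lay between -6.19 and -3.83 in inner livers (median -4.64) and between -4.95 and -3.27 in outer livers (median -3.91). The inner livers were above all outer livers at the second sampling, and both places were higher at the second sampling with no overlap. CYP7 rose by 3.16 ± 0.29 in the inner harbour (adjusted p = 1.11e-08) and by 1.20 ± 0.29 in the outer one (adjusted p = 0.00549), and the change of the site difference was 1.96 ± 0.42 (adjusted p = 0.00318, 4 of 4 probes, 1.77 to 2.34 within slides). The other 3 genes of the bile acid and lipoprotein list did not pass: apolipoprotein E had 0.87 ± 0.55, apolipoprotein A1 0.11 ± 0.28 and the bile salt pump ABC-B11 -0.19 ± 0.28.

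The peroxisome, PPAR and RXR list had 2 of 6 genes higher, beside 15 of 128 (11.7%) over all genes, and a median of 0.44. AOX, the usual abbreviation of the acyl-CoA oxidase that starts peroxisomal fatty acid oxidation, lay between -4.50 and -3.36 in inner livers (median -4.17) and between -5.45 and -4.27 in outer livers (median -4.80) at the second sampling. At the first it lay between -4.42 and -3.80 (median -4.26, inner) and between -4.33 and -2.24 (median -3.51, outer). The groups overlapped at each sampling, with the order of the medians turned. Neither site difference passed alone (0.78 ± 0.28, adjusted p = 0.0804 at the second sampling, and -0.80 ± 0.28, adjusted p = 0.0556 at the first), whereas their difference of 1.57 ± 0.40 did (adjusted p = 0.0126, 4 of 4 probes). AOX fell by 1.43 in the outer harbour (SE 0.28, adjusted p = 0.000839) and had 0.14 ± 0.28 in the inner one.

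MF1, a name the array does not explain and that was put in this list by a reading of it, was called on 1 of 4 probes, at 1.45 ± 0.46 (adjusted p = 0.0386). It averaged -5.96 ± 0.51 (inner) and -7.34 ± 0.80 (outer) at the second sampling, against -6.09 ± 0.53 and -6.02 ± 0.40 at the first (SD, n = 6), and was well above background in only 4 of 6 outer livers of the second sampling. The call was lost in 14 of 24 fits that left out 1 array (4 inner and 3 outer livers of the second sampling, 4 inner and 3 outer livers of the first), with adjusted p up to 0.0716, and the value was 0.35 with normexp. The nuclear receptors PPARg (0.21 ± 0.43), PPARa (-0.71 ± 0.72) and RXR (0.15 ± 0.26) did not pass, nor did the peroxisomal membrane transporter PMP70 (0.67 ± 0.34). PPARg was nevertheless higher in the inner harbour at both samplings, by 1.19 (adjusted p = 0.0123) at the second and 0.98 (adjusted p = 0.0364) at the first.

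Estrogen responsive genes had a median of -1.13 over 4 tested genes, the lowest among the 14 role lists with 3 or more tested genes. Of these 4 genes 1 was called lower, on a probe other than its brightest, beside 2 of 128 (1.56%) over all genes. Choriogenin L (Choriogenina_L), an egg envelope protein that the fish liver makes under estrogen, passed the background test in 0 of 6 inner livers and 1 of 6 outer livers at the second sampling, and in 5 of 6 inner livers and 1 of 6 outer livers at the first. Inner livers ran from -10.36 to -9.32 (median -9.66) and outer livers from -10.39 to -6.96 (median -9.85) at the second sampling. At the first, inner livers ran from -10.15 to 0.35 (median -5.27) and outer livers from -10.59 to -7.62 (median -9.74). The inner livers of the first sampling thus held nearly all the measurable signal and were very unequal, with an SD of 3.37. The change was -4.87 ± 1.48 (adjusted p = 0.0330) with 1 of 4 probes called, and since most livers were near background its size is not resolved. Within the inner harbour the mean was -4.99 at the first sampling, and the measured mean was -9.79 at the second. With a background floor of -8.39 in place of the latter, the ratio of means was 10.5-fold, which leaves out the spread between livers. That ratio was 5.01-fold without inner first liver 3, the brightest, and 21.5-fold without inner first liver 5, the dimmest. Under 7 other scalings the difference between samplings in the inner harbour ran from -5.16 to -1.61. The call was lost without inner second liver 2, outer second livers 4 or 5, inner first liver 8, or outer first livers 1, 3 or 4, with changes of -4.76 to -4.42 in those fits and adjusted p up to 0.0583. It was also lost with normexp, where the value was -1.76, with sample number as a block, and with 1 value per gene (limma adjusted p = 0.0635).

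The vitellogenin-like VgC, an egg yolk precursor also made under estrogen, ranged from -6.63 to -3.38 in inner livers (median -4.31) and from -5.84 to -2.88 in outer livers (median -4.80) at the second sampling. At the first it ranged from -7.82 to -0.32 (median -3.73, inner) and from -7.21 to -4.33 (median -5.29, outer). The highest and lowest inner first livers were livers 3 and 5, which were also the extremes for choriogenin L. All groups overlapped, and the change of -2.03 ± 1.22 did not pass (95% interval -4.55 to 0.48, adjusted p = 0.307). The estrogen receptors had -0.23 ± 0.69 (ERalpha) and 0.01 ± 0.53 (ERb). VTG-A and VTG-B were too dim to be tested.

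Heat shock genes, whose products fold other proteins, had 2 of 3 genes higher and a median of 1.02, beside 15 of 128 (11.7%) higher over all genes. HSP70 bears a name used for stress-inducible chaperones, and which form its probes measure was not tested. At the second sampling HSP70 lay between 1.77 and 2.56 in inner livers (median 2.17) and between 1.32 and 2.10 in outer livers (median 1.83). In first-sampling livers it lay between 1.32 and 2.38 (median 1.82, inner) and between 1.98 and 3.20 (median 2.43, outer). The groups overlapped at each sampling, with the inner median above the outer at the second and below it at the first. The change was 1.02 ± 0.30 (adjusted p = 0.0264, 4 of 4 probes), with a fall of 0.71 in the outer harbour (SE 0.21, adjusted p = 0.0209). HSC70, named for the constitutive form, had 1.15 ± 0.34 (adjusted p = 0.0305), and 3 of its 4 probes, from 3 stretches, were called at 0.90 to 1.15. Its call was lost when inner livers 1 or 2 or outer livers 2 or 5 of the second sampling, or inner livers 7 or 8 or outer livers 3 or 4 of the first, were left out, with values of 0.98 to 1.09 and adjusted p up to 0.0579. HSP90 had 0.89 ± 0.32 and did not pass (adjusted p = 0.0727). Whether the HSP70 and HSC70 probes measure separate transcripts was not tested.

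Of 12 acute phase, complement, plasma and metal genes 1 was higher, 0 were lower and 11 did not pass, with a median of 0.23. Over all genes 15 of 128 (11.7%) were higher. Transferrin, the iron carrier of plasma, lay between 4.51 and 5.19 in inner livers (median 5.02) and between 4.28 and 4.92 in outer livers (median 4.66) at the second sampling. At the first it lay between 3.24 and 5.29 (median 4.06, inner) and between 4.32 and 5.71 (median 5.18, outer). The groups overlapped, and the inner livers of the first sampling were the most spread. The change was 1.28 ± 0.37 (adjusted p = 0.0264, 4 of 4 probes, 0.56 to 2.06 within slides). The site difference behind it passed at the first sampling (-0.94 ± 0.26, adjusted p = 0.0249) and not at the second (0.33 ± 0.26).

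The plasma protein haptoglobin, which binds free haemoglobin, had the largest change of this list, 1.63 ± 0.64, and did not pass (adjusted p = 0.0884). Alpha-2-macroglobulin, a plasma protease inhibitor, averaged 4.02 ± 0.24 (inner) and 4.34 ± 0.27 (outer) at the second sampling, against 2.95 ± 0.22 and 3.92 ± 0.37 at the first (SD, n = 6). Its change of 0.66 ± 0.25 did not pass (adjusted p = 0.0812), although it rose in the inner harbour by 1.07 ± 0.18 (adjusted p = 6.1e-05). Metallothionein (MT), which binds zinc, copper and cadmium, had a change of 0.41 ± 0.51 (95% interval -0.65 to 1.47, adjusted p = 0.643). The iron hormone hepcidin had -1.07 ± 1.13 (95% interval -3.41 to 1.27, adjusted p = 0.586), with inner livers of the second sampling spread from -2.03 to 3.39. Fibrinogen beta and gamma and prothrombin, abundant liver products, had 0.11 to 0.32.

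In carbohydrate metabolism 1 of 5 genes was higher, beside 15 of 128 (11.7%) over all genes, and the median was -0.33. Pyruvate kinase, which ends glycolysis, lay between -0.53 and -0.05 in inner livers (median -0.24) and between -1.21 and -0.73 in outer livers (median -0.91) at the second sampling. First-sampling livers lay between -1.74 and -0.19 (median -0.75, inner) and between -0.69 and 0.37 (median -0.17, outer). The inner livers were all above the outer ones at the second sampling, and the medians had the reverse order at the first. The change was 1.28 ± 0.29 (adjusted p = 0.00534, 4 of 4 probes, 0.55 to 2.14 within slides). Both parts passed, with 0.67 ± 0.21 (adjusted p = 0.0308) at the second sampling and -0.61 ± 0.21 (adjusted p = 0.0498) at the first, but the first-sampling part kept its call in only 3 of 24 fits that left out 1 array. The genes named pgi-1 and pgi-2 had -0.60 ± 0.27 and -0.95 ± 0.38 and did not pass.

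Growth, cell cycle and cell death genes had 3 of 14 higher, 0 lower and a median of 0.46. Over all genes 15 of 128 (11.7%) were higher. PCD8, an abbreviation not explained on the array, lay between -3.04 and -2.48 in inner livers (median -2.65) and between -3.66 and -2.87 in outer livers (median -3.11) at the second sampling. At the first it lay between -3.35 and -2.88 (median -3.16, inner) and between -2.93 and -2.16 (median -2.38, outer). The described probe gave 1.20 ± 0.23 (adjusted p = 0.00162), and its 4 overlapping probes gave 1.20 to 1.47. PCD8 rose by 0.45 ± 0.16 in the inner harbour (adjusted p = 0.0405) and fell by 0.75 in the outer one (SE 0.16, adjusted p = 0.00215). The inner rise was called under none of the 7 other scalings and had the opposite sign, at -0.01, with quantile normalization.

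Insulin-like growth factor 1 (IGFI), a liver hormone that drives body growth, averaged -0.29 ± 0.24 (inner) and -1.11 ± 0.25 (outer) at the second sampling, against -0.72 ± 0.34 and -0.52 ± 0.39 at the first (SD, n = 6). Every inner liver lay above every outer liver at the second sampling. Its change was 1.01 ± 0.27 (adjusted p = 0.0149, 4 of 4 probes). The related IGF_II had 1.33 ± 0.53 and did not pass (adjusted p = 0.0904). VEGF, the growth factor of blood vessels, averaged -2.49 ± 0.23 (inner) and -2.65 ± 0.33 (outer) at the second sampling, against -3.78 ± 0.68 and -2.85 ± 0.23 at the first. It rose by 1.29 ± 0.24 in the inner harbour (adjusted p = 0.000245), and its change was 1.09 ± 0.34 (adjusted p = 0.0362, 4 of 4 probes). That call was lost in 11 of 24 fits that left out 1 array (2 inner and 3 outer livers of the second sampling, 3 and 3 of the first), with adjusted p up to 0.0704.

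Other lists held no called gene. The 9 mitochondrial respiratory chain genes had changes of -0.38 to 0.76 and a median of -0.07, and the 4 housekeeping names -0.16 (18S rRNA) to 0.74 (EF1-alpha). The 5 adaptive immunity genes had a median of 0.92, the value of the brightest probe of Liza_aurata_immunoglobulin. With 1 value per gene that gene had 0.21 ± 0.88. The largest change of the list was that of MHC_II, at 6.23 ± 2.32 (adjusted p = 0.0780). MHC_II passed the background test in 4 of 6 inner and 4 of 6 outer livers at the second sampling. At the first it passed in 1 of 6 and 6 of 6. Taken alone, the first-sampling site difference of MHC_II passed (-5.55, limma adjusted p = 0.0322). That of the brightest Liza_aurata_immunoglobulin probe also passed (-1.29, limma adjusted p = 0.0364). The log2 of the summed level of the 3 immune genes on the array ran from -4.95 to -1.51 (inner) and from -4.96 to -2.62 (outer) at the second sampling, and from -5.61 to -3.97 (inner) and from -4.00 to -1.67 (outer) at the first. At the first sampling the inner and outer ranges met only at their ends, the inner ones being lower. The part of immune cells in the results was not tested. All 7 hepatocyte markers exceeded background on each of the arrays, and trypsin, the only pancreatic marker, ranged from -4.34 to 4.78 with no group apart. Albumin, globin and muscle markers were not analysed here.

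The called genes are sorted below by which parts of their change passed, and differences between these sorts were not tested. Values on either side of the threshold can be close. At the first sampling HSC70 passed at -0.75 (limma adjusted p = 0.0467). HSP70 at -0.60 (adjusted p = 0.0553) and CYP7 at -0.81 (adjusted p = 0.0572) did not. At the second sampling 61 probes were called higher in the inner harbour and 0 lower (12.8%), and at the first 25 higher (5.25%) and 44 lower (9.24%), together 14.5%. These counts are from the main scaling only, whose median site difference was 0.10 at the second sampling and -0.09 at the first. Of the 17 genes, pyruvate kinase and PCD8 passed as higher in the inner harbour at the second sampling and as lower at the first. For pyruvate kinase the second-sampling call was kept under 1 of 7 other scalings and in 18 of 24 fits that left out 1 array, and the first-sampling call under 0 of 7. For PCD8 the second-sampling call, at an adjusted p of 0.0494, was kept under 0 of 7 scalings and in 6 of 24 such fits, and the first-sampling call under 3 of 7 and in all 24. Another 7 passed as higher only in the second-sampling test (UGT, CYP7, MF1, catalase, epoxide hydrolase 1, IGFI and GST), and 3 passed as lower only in the first-sampling test (transferrin, HSC70 and VEGF). The first-sampling call of HSC70 was kept under 0 of 7 scalings and in 11 of 24 fits that left out 1 array, that of transferrin under 1 of 7 and in 21 of 24, and that of VEGF under 3 of 7 and in all 24. Among the 7 second-sampling calls, that of UGT was kept under all 7 scalings and the others under 2 (GST) to 4. Heme oxygenase and choriogenin L were higher at the first sampling, and AOX, AHR2 and HSP70 passed in neither test. By their described probes, the estimates of the 15 more positive genes were above 0 at the second sampling and below 0 at the first. Under other scalings between 9 (median of detected probes) and 15 (spike-ins) of them had this pair of signs. The 15 were chosen for a more positive change, which favours this pair, and its share over all genes was not counted. Uncalled genes such as haptoglobin and HSP90 had it too. First-sampling estimates of UGT and MF1 (-0.07 each) and GST (-0.12) were close to 0. The brightest probe of AHR2, from stretch 2, lay above 0 at both samplings (0.396 at the second and 0.245 at the first). The second-sampling estimate of PCD8 was -0.05 with quantile normalization and -0.13 with the authors' deposited values.

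**Figure D4:**
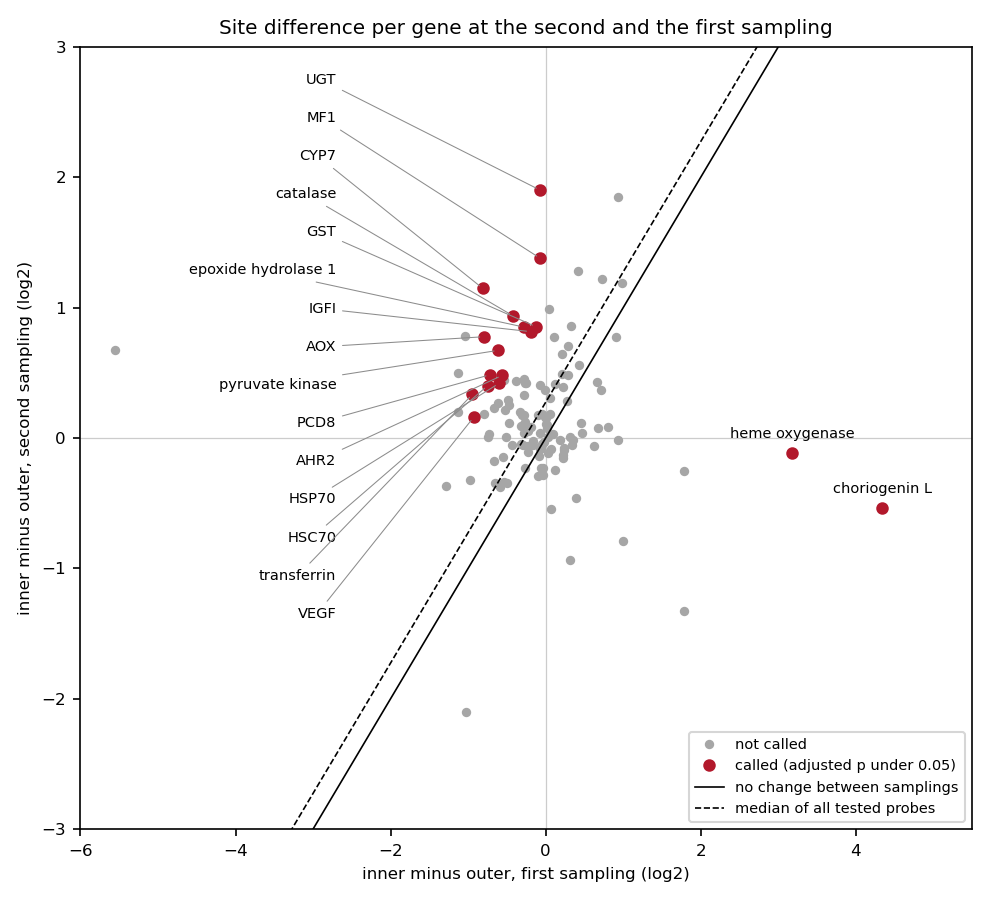
Inner minus outer difference (log2) at the second sampling (vertical axis) and at the first (horizontal axis) for 128 genes, each by 1 probe. Red points are the 17 called genes, the solid line marks equal differences and the dashed line is offset by the median change of 0.27. The 15 more positive genes lie at the upper left, and heme oxygenase and choriogenin L at the far right.

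Seen within each place, 121 probes changed between samplings in the inner harbour (25.4%, with 85 or 17.9% higher and 36 or 7.56% lower) and 79 in the outer (16.6%, with 15 or 3.15% higher and 64 or 13.4% lower). These counts too are from the main scaling only, whose median difference between samplings was 0.14 (inner) and -0.08 (outer). For 7 of the 17 genes the change between samplings passed only in the outer harbour, as a fall (AOX, MF1, catalase, pyruvate kinase, epoxide hydrolase 1, HSP70 and IGFI). For 4 it passed only in the inner harbour, as a rise (UGT, transferrin, VEGF and AHR2), and for heme oxygenase and choriogenin L as a fall there. The outer rise of heme oxygenase, which did not pass (1.22, limma adjusted p = 0.0601), was called under 4 of 7 other scalings. AHR2 stands here by its described probe. Its brightest probe averaged -3.66 (inner) and -4.05 (outer) at the second sampling, against -4.28 and -4.53 at the first. CYP7 and GST rose at both places, PCD8 rose in the inner and fell in the outer harbour, and HSC70 passed in neither. The outer falls of AOX and catalase and the inner rises of UGT, CYP7, VEGF and GST were called under all 7 other scalings, while the inner rise of transferrin was called under 1. The outer falls of pyruvate kinase, HSP70 and IGFI were each called under 3 of 7, that of epoxide hydrolase 1 under 5 and that of MF1 under 6.

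Taken as a set, the 15 more positive genes did not vary together from liver to liver. The closest pair, HSP70 and HSC70, did (r = 0.93). Around group means, the 105 pairs of described probes of the 15 genes had a median correlation of -0.01 (range -0.54 to 0.93), and 50 were above 0. The 8128 pairs of all 128 genes had a median of 0.15. These correlations over 24 arrays share the scaling of each array. Across 128 genes the Pearson correlation of the signed change with the GC content of the brightest probe was -0.00. Called probes had a median GC of 43.6% and all tested probes 50.9%, and 13 of 70 genes at or below the median GC were called, against 4 of 58 above it. The part of base composition in the calls was not tested. Across genes the signed change had r = -0.03 with mean level.

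Whole-array measures were compared by the same contrast. The arrays had 447.5 ± 15.8 probes well above background in inner and 427 ± 29.3 in outer livers at the second sampling, and 465 ± 14.1 and 470.5 ± 9.73 at the first (SD, n = 6). The change of 26.3 probes did not pass (exact permutation of site within sampling, two-sided p = 0.0901, 853776 relabelings). The array's 75th percentile had a change of 0.05 (exact permutation p = 0.879) and the mean spike-in level one of -0.13 (exact permutation p = 0.582). These relabelings assume no site difference at either sampling, so their p-values do not test the change alone. Arrays of a group correlated at 0.925 to 0.991. The 3 slides each hold 2 arrays of every group, and all 17 called genes, which were chosen by their calls on these arrays, kept their sign within each slide.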

How the data were processed

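Liver RNA of 24 samples was labelled with Cy3 and measured on 1-colour arrays. Per the file headers, each deposited spot intensity is a processed signal from Agilent's Feature Extraction, version 9.5.3.1, which the authors ran with background subtraction and detrending. The log2 values of the authors' deposited table matched their own arrays best in 24 of 24 columns (r of 0.992 or more). Their column medians ran from 6.774 to 6.818, and how they were normalized or centred is not stated in those sources. All columns share a maximum of 18.48, and all but that of inner first liver 5 (0.80) share a minimum of 0.83. Quantile normalization also gives arrays such shared values, so the deposited values and the quantile setting used here may not be independent.

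Here flagged spots (40 to 125 per array) were left out, the log2 signals of a probe's spots averaged and the array's 75th percentile subtracted. No spot was saturated. Testing required that at least 50% of a probe's spots exceeded the scanner's background test on 6 or more arrays. This left out 162 of 638 probes and 30 of 158 genes, and 371 to 484 probes per array were above background. Names whose probes share bases were joined. All 24 arrays entered 1 limma fit (limma 3.58.1, R 4.3.3) with a coefficient per group, so that precision depends on how many arrays there are. The script was tested on simulated data.

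At most 15 genes in each direction, those whose called probes changed most, are named, by their brightest called probe, and a few pollution markers whatever their p, by their brightest tested probe. Members of a gene list are named where the list is described. The genes and lists were chosen with earlier results of these data known. Alternatives were 7 scalings, filters, flagged spots kept, slide or sample number as a block, another variance model, 1 value per gene, and each array left out. Same-numbered samples of different groups had a median correlation of deviations of 0.02, with 7 of 29 pairs above 0.1, so the numbers showed no visible pairing. Genome coordinates of the probes were not analysed here.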

Additional observations from a re-analysis of the deposited data

Results flagged for a closer look

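For 17 genes the test of the contrast itself (limma) passed under the main scaling. By their described probes, the calls of MF1, epoxide hydrolase 1, VEGF and AHR2 were kept under 0 of 7 other scalings. They were lost in 11 to 14 of 24 fits that left out 1 array. Another probe of epoxide hydrolase 1 was called with normexp. The change of the inner minus outer difference from the first to the second sampling, in log2 units, was 1.98 for UGT, 1.96 for CYP7, 1.57 for AOX, 1.45 for MF1, 1.35 for catalase, 1.28 for pyruvate kinase, 1.28 for transferrin and 1.20 for PCD8. It was 1.15 for HSC70, 1.14 for epoxide hydrolase 1, 1.09 for VEGF, 1.04 for AHR2, 1.02 for HSP70, 1.01 for IGFI and 0.98 for GST. It was -4.87 for choriogenin L, whose size is not resolved, and -3.29 for heme oxygenase. The tests behind these values are those of the report.

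In 2 of 92 groups of 6 livers, a single liver stood apart from the other 5 by more of the group's range than Dixon's critical value, and chance gives about 1 group in 20. In inner livers of the first sampling, catalase was high in liver 4 at -0.59 (gap 0.672 of the range) and IGFI was low in liver 5 at -1.37 (gap 0.700). Without liver 4 or liver 5 the calls of both genes were kept.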

How the results depend on the processing

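Against 58 called probes of 17 genes, the array median gave 30 probes and 10 genes, the 75th percentile of detected probes 27 and 10, the median of detected probes 31 and 11, quantile normalization 14 and 6, spike-ins 11 and 3, and the authors' deposited values 13 and 5. The cause of these differences was not tested. Leaving out 1 array gave 47 to 73 probes and 14 to 21 genes. The replicate block gave 41 probes and 11 genes. Sample numbers showed no visible pairing: same-numbered samples had a median correlation of 0.02 and differently numbered ones 0.02, and 4 of 24 arrays matched their own number best. The change for MT turned to -0.15 with the median of detected probes, and the second-sampling difference of PCD8 to -0.0505 under quantile normalization and -0.134 in the deposited values. Of the array measures, the change in probes well above background was 50.5 within slide 2 and 3.5 within slide 3, and that of the spike-in level -0.75 within slide 1 and 0.66 within slide 3. With 1 value per gene 14 genes were called, and MF1, AHR2 and choriogenin L were not. The 11 genes that kept their call whichever array was left out were UGT, CYP7, AOX, catalase, pyruvate kinase, transferrin, PCD8, HSP70, IGFI, GST and heme oxygenase. Signal over background limits choriogenin L, MF1 and MHC_II.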

Other observations

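The gene with the largest estimate of all, MHC_II, which bears the name of the molecules that present antigen to T cells, did not pass. Inner livers ran from -10.81 to -1.72 (median -4.17) and outer livers from -10.58 to -3.39 (median -4.99) at the second sampling. At the first, inner livers ran from -11.46 to -4.75 (median -10.56) and outer livers from -6.60 to -1.93 (median -4.08). Taken alone, the first-sampling site difference of MHC_II passed (-5.55, limma adjusted p = 0.0322). Only 1 of 6 inner livers of the first sampling was well above background, so the size of any difference is not resolved.

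Another 6 genes were called lower under other scalings only. pgi-1 was called under 5 of the 7 (main value -0.60 ± 0.27), the gene named Liza_aurata_S11r under 4 (-0.20 ± 0.22), CYP_scc-24, whose name recalls the side chain cleavage enzyme of steroid synthesis, under 3 (-1.78 ± 0.66) and complement C3 under 3 (0.03 ± 0.30). pgi-2 (-0.95 ± 0.38) and Complement_Bf/C2 (-0.61 ± 0.29) were called with the median of detected probes only. All 6 values, each on the gene's brightest probe, lie below the median change of 0.27, and the calls can lie on other probes. With 1 value per gene under the main scaling, C3 had -0.34 ± 0.27 and Complement_Bf/C2 0.02 ± 0.23.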
